A study of Homo sapiens with 3 samples.

Results

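ESM1 and 8 other secreted regulators of blood and lymphatic vessel growth, VEGFC, PGF, ANGPT1, ANGPT2, THBS1, THBS2, EDN1 and STC1, were examined in a human melanoma cell line grown in 3 states. The members are all probes whose gene name on the array equals 1 of these 9 symbols, and they came to 15 probes in 33 spots, against 15202 known genes on the array. The members were selected on their array signals in the same 3 samples, with the ratios between the states already known, so the levels below are a description and none of them was tested. Of the 9 genes, 6 (VEGFC, ANGPT1, THBS1, THBS2, STC1 and PGF) were well above background in all 3 samples, while ESM1 was well above background in 2 of the 3 states and ANGPT2 and EDN1 in none.

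The cells were 1205Lu, a line taken from a lung metastasis that the human melanoma line WM793 formed as a xenograft in mouse. The original monolayer (OM) had 14 days in standard medium with 10% fetal calf serum. The melanoma bodies (MB), which are adherent spheroids, had 14 days in human embryonic stem cell (hESC) medium with 20% serum replacement. The new monolayer (NM) was taken from bodies kept 14 days in hESC medium, put back into standard medium for 10 days, and remaining bodies were taken away before RNA was isolated. Each state is 1 culture of 1 line on 1 Cy3 array, and the 3 arrays lie on 1 slide, so no p-value can be given, and the medium and the growth form of the MB sample cannot be told apart. The RNA is bulk RNA, in which fewer cells that express a gene and less of its RNA per cell cannot be told apart.

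Angiogenic factors are secreted proteins that tumor cells and other cells release and that endothelial cells sense through surface receptors. Vascular endothelial growth factors signal through receptor tyrosine kinases, angiopoietins through the receptor TIE2 (gene TEK), and endothelins through G protein-coupled receptors. The thrombospondins encoded by THBS1 and THBS2 restrain endothelial growth. ESM1 encodes endocan, a proteoglycan first known from endothelial cells and made by several tumor types. None of these proteins was measured here, and every value is an RNA signal.

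The array reads each gene through single-stranded oligos of 60 bases. Shown are 2 oligos, that of the dimmer of the ESM1 probes, because it is a further reading of the member with the lowest ratio of MB to OM, and that of PGF, the member with the highest. Both are written 5′ to 3′ as the deposited files hold them, on the minus strand of the hg17 human genome build, with no base singled out by capitals. The ESM1 oligo lies at chr5:54313586-54313645 and has a GC content of 38.3%, and the PGF oligo lies at chr14:74484995-74485827, a span of 833 bases that 60 bases can cover only with a gap, with a GC content of 58.3%.
ESM1 probe 2: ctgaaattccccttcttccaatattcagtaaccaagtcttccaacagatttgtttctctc
PGF probe: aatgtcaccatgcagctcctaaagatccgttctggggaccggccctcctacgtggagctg

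ESM1 RNA was the member that moved furthest between the states. Its brighter probe, at chr5:54310315-54310374, gave an unscaled signal of 449 a.u. in the OM sample, 11.3 a.u. in the MB sample and 248 a.u. in the NM sample. The signal was high in both monolayers and, in the bodies, fell under the level at which a spot counts as well above background. For that reason the ratio has only a bound, and after scaling to housekeeping genes the OM signal was at least 22.6-fold and the NM signal at least 14.2-fold above that of MB.

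The dimmer ESM1 probe read 104 a.u. in OM, 16.7 a.u. in MB and 39.5 a.u. in NM, so it had the same order, with MB again not well above background. By this probe the bodies had an ESM1 level at least 5.22-fold under that of OM and at least 2.27-fold under that of NM. Between the monolayers, NM lay below OM on both probes, with a log2 ratio of -0.67 on the brighter and -1.20 on the dimmer. Both of these exceed the technical spread. Probes of the same gene had an SD of 0.28 about their mean for this ratio, among probes above 100 a.u. on both arrays. The dimmer ESM1 probe was under 100 a.u. in NM, so this SD does not tell whether the 2 ratios differ unusually.

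**Figure D1:**
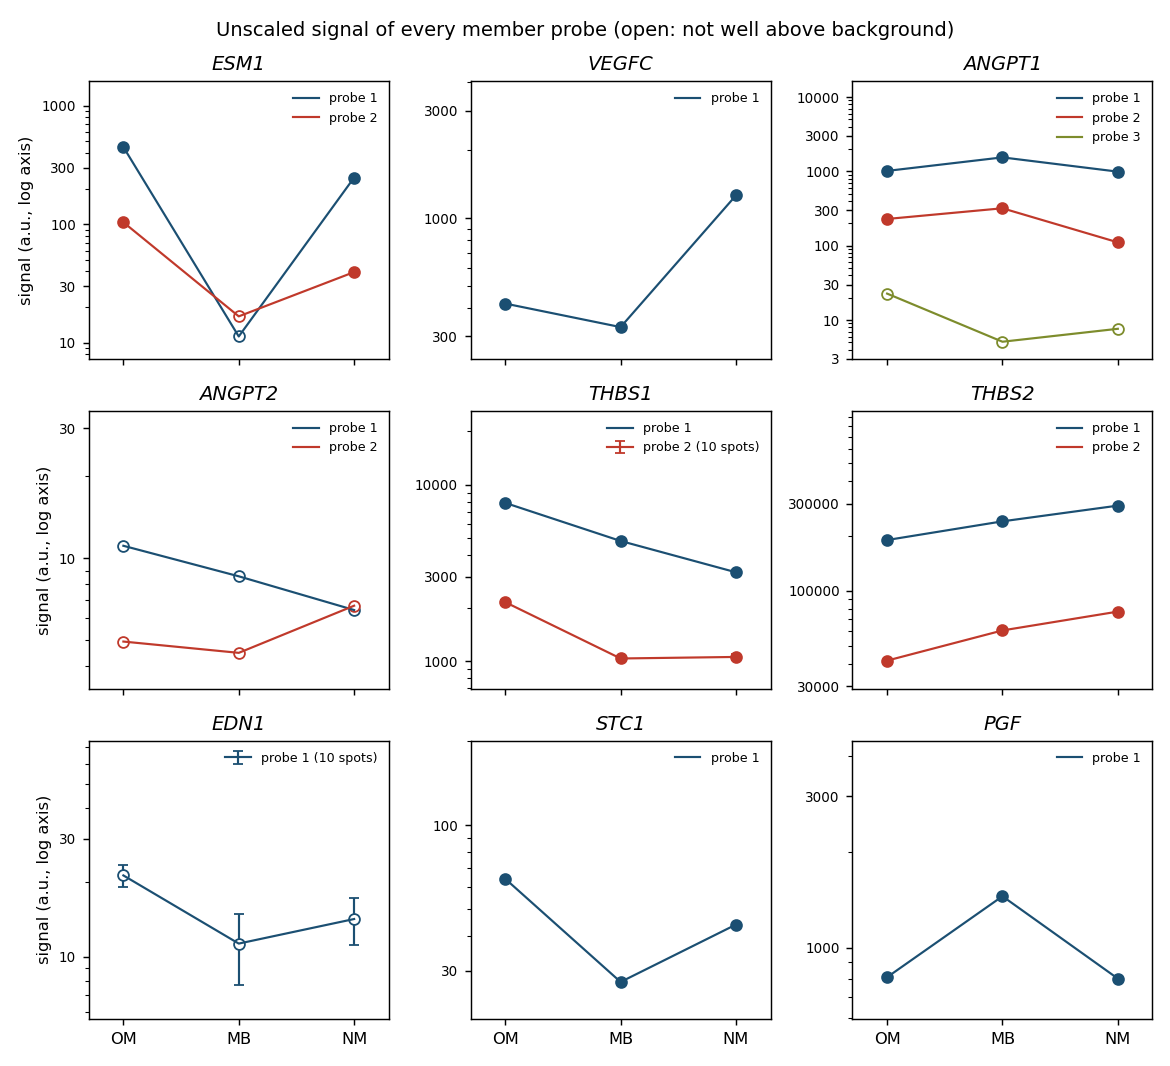
Unscaled signal (a.u., log axis) of every member probe in the OM, MB and NM samples, with 1 line per probe, open points for probes not well above background and bars for the SD over spots where a probe has 10 spots. ESM1 drops to background in MB alone on both probes, VEGFC is highest in NM at 1263 a.u., PGF is highest in MB at 1453 a.u., and ANGPT2 and EDN1 stay at background in all 3 samples.

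The precision behind these ratios comes from repeated spots and repeated probes, since there are no repeated cultures. Probes printed in several spots showed how far a single-spot log2 ratio of MB to OM varies, with an SD of 0.04 when both arrays were above 100 a.u. (201 probes) and 0.35 between 20 and 100 a.u. (12 probes). Different probes of the same gene spread more, with SDs of log2 ratios of 0.30 between MB and OM (3728 genes) and 0.43 between MB and NM (3580 genes). Below, a difference is larger than the technical spread when it exceeds 2 SD of single-spot ratios over the square root of the spot number. The SD of dim spots is used where the dimmer array was not above 100 a.u., even if the brighter array was. This rule says nothing on the spread between cultures.

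VEGFC, the growth factor ligand of the lymphatic receptor VEGFR-3 (gene FLT4), followed another order. Its single probe, at chr4:177979972-177980031, gave 419 a.u. in OM, 329.6 a.u. in MB and 1263 a.u. in NM. The NM sample stood above both other samples, and OM and MB lay closer together, though further apart than the technical spread. On scaled signals VEGFC was 3.44-fold higher in NM than in OM, 4.27-fold lower in MB than in NM, and 1.24-fold lower in MB than in OM.

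PGF, placental growth factor, a ligand of VEGFR-1 (gene FLT1), was highest in the bodies. The oligo shown above gave 808 a.u. in OM, 1453 a.u. in MB and 800.0 a.u. in NM. The scaled MB signal was 1.84-fold that of OM and 1.63-fold that of NM, both larger than the technical spread and both short of 2-fold. OM and NM had nearly the same unscaled signal, and their log2 ratio of 0.18 on scaled signals became -0.01 without scaling.

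The angiopoietins were represented by 3 probes for ANGPT1, the agonist of TIE2, and 2 for ANGPT2, which acts on the same receptor and can oppose ANGPT1. The brightest ANGPT1 probe read 1015 a.u. in OM, 1543 a.u. in MB and 992 a.u. in NM. A second probe read 229 a.u. in OM, 319 a.u. in MB and 111 a.u. in NM. On both, MB was highest, at 1.56-fold and 1.42-fold the scaled OM signal.

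The monolayers could not be ordered for ANGPT1. The log2 ratio of NM to OM was 0.16 on the brightest probe, where it turned to -0.03 without scaling, and -0.86 on the second probe. The remaining ANGPT1 probe was at background in all samples, with 22.7 a.u. in OM, 5.11 a.u. in MB and 7.63 a.u. in NM. ANGPT2 was at background on both of its probes, which read from 4.48 to 11.1 a.u. over the 3 samples, and no fold is given for it.

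Thrombospondin 1 and thrombospondin 2 (THBS1 and THBS2), matricellular proteins that inhibit angiogenesis, differed in the place of OM, the highest sample for THBS1 and the lowest for THBS2. The brighter THBS1 probe, at chr15:37676123-37676182, read 7872 a.u. in OM, 4790.4 a.u. in MB and 3183 a.u. in NM. The other THBS1 probe, at chr15:37675202-37675261, was printed in 10 spots and read 2156 ± 68.9 a.u. (SD over 10 spots) in OM, 1034 ± 35.3 a.u. in MB and 1055 ± 44.5 a.u. in NM. OM was highest on both probes, and the lowest of its 10 spots, at 2039 a.u., lay above the highest spot of MB, at 1073 a.u., and of NM, at 1113 a.u.

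The ratios of THBS1 lay on either side of 2-fold according to the probe. Scaled THBS1 signal was 1.61-fold lower in MB than in OM on the brighter probe and 2.04-fold lower on the other. In NM it was 2.17-fold lower than in OM on the brighter probe and 1.79-fold lower on the other. The order of MB and NM turned between the probes, with a log2 ratio of MB to NM of 0.43 on the brighter and -0.18 on the other, so these neighbours in the order cannot be separated.

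THBS2 was read by a probe at chr6:169433843-169433906, which gave 189958 a.u. in OM, 240494 a.u. in MB and 293192 a.u. in NM. Its other probe gave 41512 a.u. in OM, 60739 a.u. in MB and 77028 a.u. in NM, and none of the spots was saturated. Both probes were lowest in OM and highest in NM. Scaled THBS2 signal in NM was 1.76-fold that of OM on the first probe and 2.12-fold on the other, while the log2 ratio of MB to OM was 0.37 and 0.58. The log2 ratio of MB to NM on the first probe, -0.44, became 0.02 after quantile normalization, so the order of these 2 samples depends on the scaling.

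**Figure D2:**
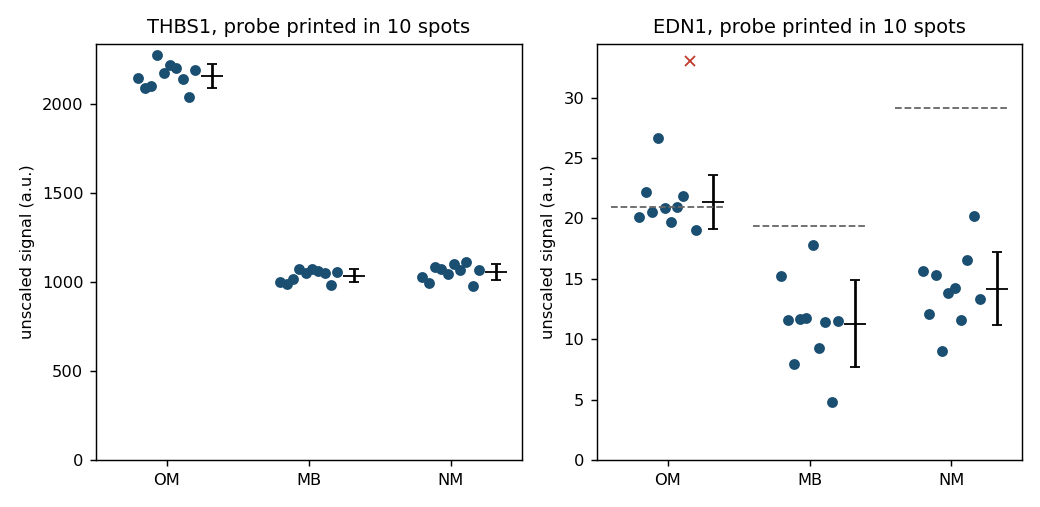
Unscaled signal (a.u.) of each spot of the THBS1 and EDN1 probes that are printed in 10 spots, by sample, with the mean and SD beside the points, dashed lines for the lowest signal that any probe well above background had on that array, and a cross for a spot left out as an outlier. The THBS1 spots of OM, between 2039 and 2271 a.u., lie apart from those of MB and NM, while the EDN1 spots lie around the dashed line in OM and under it in MB and NM.

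EDN1, which encodes the vasoconstrictor peptide endothelin-1, a mitogen for melanocytes as well as a vascular factor, was not detected. Its probe, at chr6:12404658-12404717, averaged 21.3 ± 2.24 a.u. over 9 used spots in OM, 11.3 ± 3.59 a.u. over 10 spots in MB and 14.2 ± 3.04 a.u. over 10 spots in NM. In OM 1 of the used spots was well above background and in MB and NM 0 were, so no fold is given. The lowest signal of any probe well above background was 20.9 a.u. in OM, 19.4 a.u. in MB and 29.1 a.u. in NM. These are not strict limits of detection, since EDN1 averaged more than that in OM without being well above background.

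STC1, stanniocalcin 1, a secreted glycoprotein hormone made by endothelial and tumor cells among others, was dim but detected. It read 64.2 a.u. in OM, 27.4 a.u. in MB and 44 a.u. in NM. MB was the lowest, at 2.29-fold below OM and 1.79-fold below NM on scaled signals, and both differences passed the wider technical spread of dim spots. NM and OM differed by a log2 ratio of -0.36, which was within that spread. All 3 signals lay under 100 a.u. and came from 1 spot of 1 probe. With the normexp background correction the STC1 log2 ratio of MB to OM moved from -1.19 to -0.48, and that of MB to NM from -0.84 to -0.50. That correction adds an offset of 50 a.u., which shrinks the ratios of dim signals. The 2 SD of dim spots, 0.71 and 0.70, were computed without the offset, so whether the spread is passed under normexp was not tested.

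Few of the 9 genes passed a fold threshold with the brighter sample above 100 a.u. Past 5-fold in MB against OM lay 1 of 9, with 1 lower (ESM1) and 0 higher, where 1.33% of all genes passed, 0.526% lower and 0.803% higher. Past 5-fold in MB against NM lay 1 of 9, with 1 lower (ESM1) and 0 higher, where 2.51% of all genes passed, 1.14% lower and 1.36% higher. Between NM and OM, 0 of 9 passed 5-fold, where 0.711% of all genes passed, 0.487% higher and 0.224% lower.

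At 2-fold, 1 of 9 was lower in MB than in OM (ESM1) and 0 were higher, where 7.34% of all genes passed, 2.68% lower and 4.67% higher. Against NM, 2 of 9 were lower in MB (ESM1 and VEGFC) and 0 were higher, where 14.4% of all genes passed, 6.5% lower and 7.86% higher. NM held 1 gene at least 2-fold higher than OM (VEGFC) and 1 lower (THBS1), where 5.38% of all genes passed, 3.25% higher and 2.13% lower. The members were chosen with these ratios known, so nothing is read from the counts.

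The median log2 ratio of the 9 genes, those at background as read, was -0.34 between MB and OM, where all 15195 genes had 0.07. It was -0.44 for MB to NM and -0.36 for NM to OM, where all genes had -0.06 and 0.17. With 9 genes each of these medians is the value of a single gene, that of MB to OM being ANGPT2, which was at background, so no statement on the list is drawn from them.

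Single members differed in how unusual their ratios were among the genes well above background in at least 1 of the 2 samples. ESM1 is not placed by its ratios to MB, which are bounds. Of 12238 such genes, 452 had a ratio of MB to OM as low as that of STC1 or lower (3.69%). The STC1 ratio comes from 1 spot under 100 a.u. In all these counts, ratios of genes at background in 1 of the 2 samples are taken as read. For NM to OM, 194 of 12000 genes were as high as VEGFC (1.62%) and 430 as low as THBS1 (3.58%). The ratio of MB to OM of PGF was reached by 9.71% of genes, that of ANGPT1 by 17.3% and that of THBS2 by 31.7%.

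**Figure D3:**
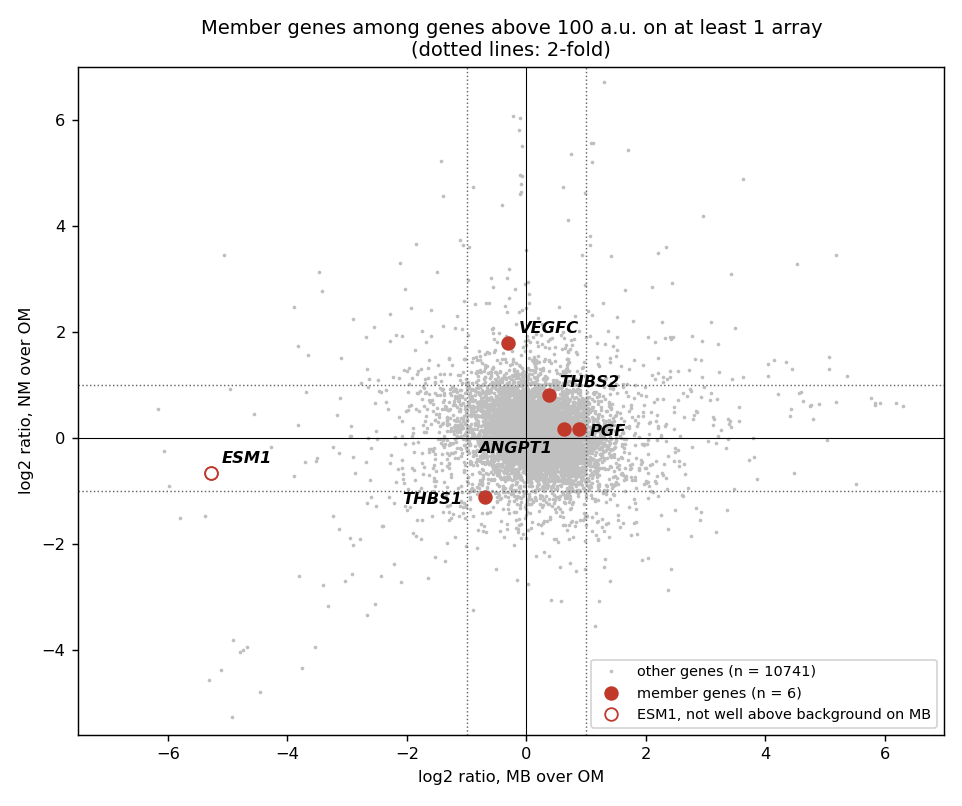
Log2 ratio of scaled signals of MB over OM (x axis) against that of NM over OM (y axis) for 6 members in red and 10741 other genes in gray, all above 100 a.u. on at least 1 array, with dotted lines at 2-fold and 3 genes outside the plotted range. ESM1, drawn open because its MB signal was at background, lies at the far left at -5.28 and -0.67, VEGFC lies high at 1.78 on the y axis, and the other members lie within or near the dense center.

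The genes with the pattern most like ESM1, by Euclidean distance over both log2 ratios to OM as read (3 arrays, 10746 genes searched), were the hair keratin-associated proteins KRTAP1-5 and KRTAP15-1, the cytokine IL1A, the membrane ubiquitin ligase MARCH4 and the chemokine CXCL14, at distances from 0.74 to 1.12. ESM1 and all of these but CXCL14 were at background in MB, so their ratios of MB to OM are bounds and no order among them is read. The unscaled IL1A signal was 707 a.u. in OM, 16.5 a.u. in MB and 223 a.u. in NM. CXCL14 read 5457 a.u. in OM, 275 a.u. in MB and 4244 a.u. in NM.

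For the other members the nearest genes lay within a distance of 0.15. VEGFC had KRT86, a hair keratin, and GDF15, a stress-induced cytokine of the TGF-beta superfamily, which read 16617 a.u. in OM, 12758 a.u. in MB and 55466 a.u. in NM. ANGPT1 had RNF111 and ZNF485, THBS1 had SLC2A11 and AKR1C3, THBS2 had HECA and TAP2, and PGF had PKNOX2 and APH1B. ANGPT2, EDN1 and STC1 did not reach 100 a.u. in any sample and were not compared in this way.

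The receptors and relatives of the members give their surroundings in the same cells. Of 42 further genes of these pathways, all on the array, 33 were well above background in at least 1 sample and 27 in all 3. Against OM, 4 of the 42 were at least 2-fold higher in MB (EDNRB, PDGFA, PTN and ADAMTS1) and 3 lower (NRP1, STC2 and MDK). This balance depends on the scaling, with 3 higher and 5 lower under spike-in scaling (ADAMTS1 was lost) and 6 higher and 4 lower under quantile normalization (SPARC and COL18A1 were gained), and NRP1 was lost with the median over probes. Against NM, 5 were higher in MB and 7 lower, which became 7 and 6 without scaling. NM had 2 above and 3 below OM, and 3 above and 2 below with the geometric mean of the housekeeping genes. The shares of all genes are those given for the members.

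STC2, the paralog of STC1, had the lowest ratio of MB to OM among those of the 42 well above background in both samples. It read 4643 a.u. in OM, 351 a.u. in MB and 7424 a.u. in NM, so that MB was the lowest sample, as for ESM1. STC1 was also lowest in MB, but it stayed under 100 a.u. in all 3 samples and rests on 1 spot. On scaled signals STC2 was 12.9-fold lower in MB than in OM and 23.6-fold lower than in NM, and its 2 probes had log2 ratios of MB to OM of -3.71 and -3.69.

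Among the 8 VEGF ligands and receptors, NRP1, a co-receptor, was the only gene past 2-fold between MB and OM. It read 11945 a.u. in OM, 5445 a.u. in MB and 19666 a.u. in NM, 2.14-fold lower in MB than in OM and 4.02-fold lower than in NM. Its 3 detected probes had log2 ratios of MB to OM from -1.10 to -0.71. Those of MB to NM ran from -2.01 to -0.65. For NM to OM they ran from -0.29 to 0.91, so the monolayers could not be ordered for NRP1. The main angiogenic ligand, listed on the array as VEGF (VEGFA), read 1808 a.u. in OM, 2496 a.u. in MB and 3005 a.u. in NM, with no ratio past 2-fold.

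The VEGF receptor tyrosine kinases were dim apart from FLT1, the receptor of PGF. FLT1 read 1823 a.u. in OM, 1127 a.u. in MB and 597 a.u. in NM and was 2.68-fold lower in NM than in OM. That ratio rests on 1 of its 2 probes, the only 1 well above background in both samples. For MB to OM the 2 probes had log2 ratios of opposite sign, -0.66 and 0.82. FLT4, the receptor of VEGFC, read 70.9 a.u. in OM, 67.2 a.u. in MB and 44.2 a.u. in NM. KDR, the main endothelial VEGF receptor, was well above background in OM only, at 26.7 a.u.

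The angiopoietin receptors were at or near background. TIE1 and the ligand ANGPT4 were not well above background in any sample. TEK was well above background in NM only, where its single spot read 203 a.u. against 18.4 a.u. in OM and 4.99 a.u. in MB, at least 11.1-fold higher than OM. There were 62 such spots on the NM array that were bright on this array alone, and the TEK value rests on 1 spot of 1 probe.

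RNA of endothelin receptors and of a converting enzyme was detected, while that of the ligands was not. EDN2 and EDN3 were at background in all samples, as EDN1 was. EDNRB, the receptor of the melanocyte lineage, read 308 a.u. in OM, 996 a.u. in MB and 381 a.u. in NM, 3.31-fold higher in MB than in OM on scaled signals. This rests on 1 of its 2 probes, the only 1 well above background in both samples. EDNRA, the other receptor, was well above background in MB only, with 18.7 a.u. in OM, 46.9 a.u. in MB and 19.3 a.u. in NM. ECE1, which cleaves the endothelin precursors, read 751 a.u. in OM, 822 a.u. in MB and 651 a.u. in NM.

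Among 11 other secreted angiogenic factors, PTN (pleiotrophin) and MDK (midkine), the members of a family of heparin-binding growth factors, differed in the place of MB, the highest sample for PTN and the lowest for MDK. PTN read 7689.8 a.u. in OM, 26256 a.u. in MB and 6965 a.u. in NM, 3.49-fold higher in MB than in OM. MDK read 2809 a.u. in OM, 1129.8 a.u. in MB and 4407 a.u. in NM, 2.43-fold lower in MB than in OM. PDGFA, a platelet-derived growth factor chain, was 2.90-fold higher in MB than in OM.

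Of the thrombospondin relatives and receptors, THBS4 read 86.3 a.u. in OM, 47.6 a.u. in MB and 210.5 a.u. in NM and was 2.78-fold higher in NM than in OM. CD47, a receptor of THBS1, read 10209 a.u. in OM, 12319 a.u. in MB and 12136 a.u. in NM, and CD36, another, was at background. Among 8 other secreted inhibitors, ADAMTS1 was 2.35-fold higher in MB than in OM, and TIMP3 was 2.03-fold lower in NM than in OM. The TIMP3 ratio rests on 1 of its 2 probes, and it fell short of 2-fold with the geometric mean of the housekeeping genes. SPARC and COL18A1, the precursor of endostatin, were 1.91-fold and 1.82-fold the OM signal in MB, short of 2-fold.

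**Figure D4:**
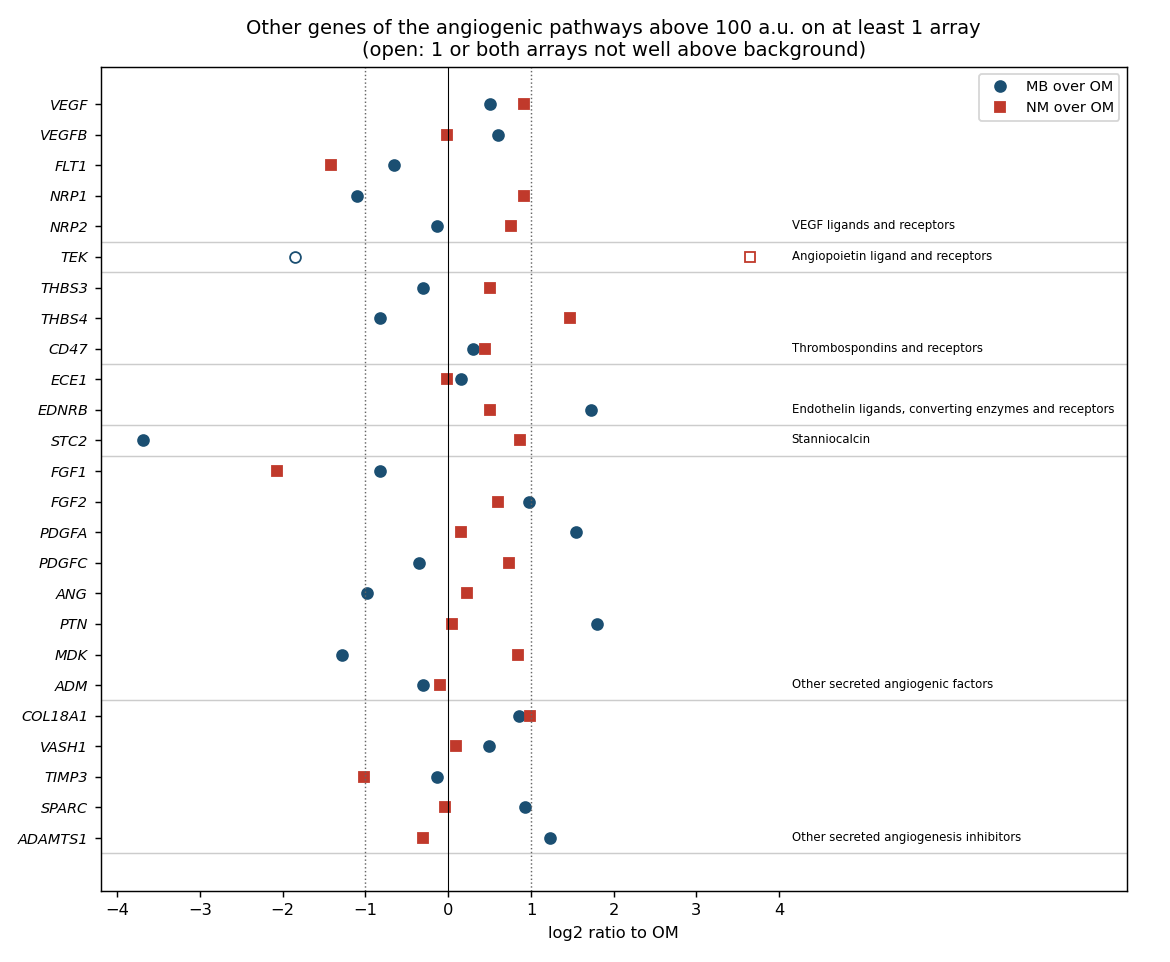
Log2 ratio to OM of scaled signals for the 25 further pathway genes that passed 100 a.u. on at least 1 array, with circles for MB, squares for NM, open symbols where 1 or both arrays were not well above background and dotted lines at 2-fold. STC2 stands at -3.69 in MB and PTN at 1.80, while the open TEK square at 3.65 in NM rests on a single spot.

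The label of the line was compared with lineage markers. Of 8 melanocyte lineage markers, 6 were well above background in at least 1 sample, among them SOX10 with 6254 a.u. in OM, 9382 a.u. in MB and 4887 a.u. in NM, while the pigment enzymes TYR and TYRP1 were at background in all. Because several members are typical of endothelial cells, 8 endothelial markers were read as well, and 4 were well above background in all samples. Of the other markers, CDH5 and EMCN were at background in all 3 samples, with at most 8.7 a.u., and PECAM1 was well above background in MB only, at 87.7 a.u. in a single spot. CLDN5 was well above background in NM only, where 1 probe read 101 a.u. in a single spot and the other 13.4 a.u. VWF was highest in MB, with 185 a.u. in OM, 390.0 a.u. in MB and 95.6 a.u. in NM, as were ROBO4 and ESAM, while ERG was lowest there, with 114 a.u. in OM, 88.8 a.u. in MB and 99.3 a.u. in NM. The part of such markers in the levels of the members was not tested.

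The ratios of the members kept their place to different degrees when the processing was changed. The log2 ratio of NM to OM of VEGFC ran from 1.59 to 1.85 over the alternatives, and its ratio of MB to NM from -2.28 to -1.86. ESM1 was lower in MB than in OM in every setting, but its log2 ratio ran from -5.59 to -2.70. The smallest size came under normexp, where an offset of 50 a.u. is added to an MB signal at background. THBS1 stood between -1.31 and -0.98 for NM to OM.

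**Figure D5:**
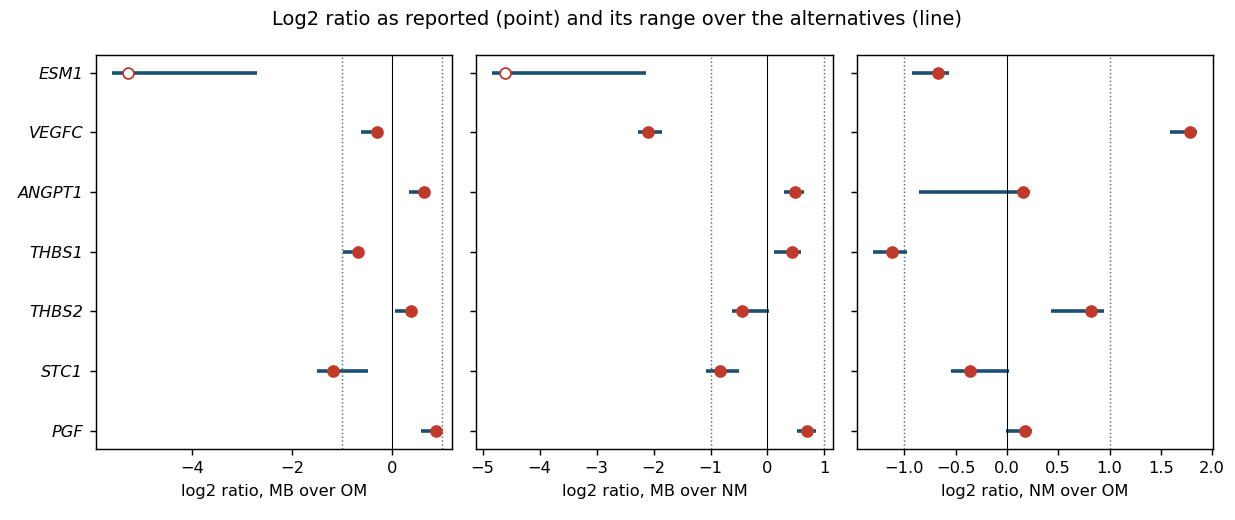
Log2 ratio of scaled signals as reported (points, open for ESM1 where the MB signal was at background) and its range over the alternative settings (lines) for the 7 members well above background in at least 1 sample, with 1 panel per comparison and dotted lines at 2-fold. The ESM1 lines run to -2.70 and -2.13 but stay beyond 2-fold, the VEGFC line of NM over OM stays beyond 2-fold, and the lines of ANGPT1, STC1 and PGF for NM over OM and of THBS2 for MB over NM cross 0.

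Each array has 41000 probes, of which 70.1% in OM, 71% in MB and 64.7% in NM were well above background, so that NM detected the fewest. The lowest signal of a probe well above background was also highest on the NM array. Between 77 and 81 spots an array were marked as outliers. The housekeeping mean used for scaling gave factors of 0.978 for MB and 0.877 for NM relative to OM. Of the member spots, 1 was among the outliers, that of EDN1 in OM.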

How the data were processed

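RNA of 3 samples (OM, MB and NM, 1 each, grouped by the labels) was read on 3 arrays of 1 slide. The authors deposited spot intensity values in arbitrary units from Feature Extraction 9.5.3.1 (9.5 in the submitters' processing notes), with background subtracted, low values replaced by a surrogate, and no scaling between arrays. The deposited value table holds the same intensity values (130128 of 130128 within 0.1%).

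Here, outlier and control spots were left out and spots of a probe averaged. A probe was well above background when most of its used spots carried that mark in the files. The scaling factor of an array was its average over 3 housekeeping genes, GAPDH, ACTB and HSP90AA1, as in the methods, which name HSP90 without the gene. A gene was read by its probe with the highest mean over the arrays, and passed at 5-fold (the methods' rule) or 2-fold if its brighter array exceeded 100 a.u. before scaling. Where the dimmer array was at background, "at least N-fold" divides by the higher of its own signal and the lowest signal of any probe well above background there. Some probes above that lowest signal were still not well above background, so these bounds are approximate. Known genes have a RefSeq mRNA accession and no provisional name. The members and lists were chosen with earlier results of these data known. Genes named beside members are those of the fixed lists, the 5 nearest to ESM1 and the 2 nearest to each other member above 100 a.u. All 9 symbols were found in a current RefSeq gene table (names only). Coordinates are hg17 as in the files.

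No test was run, because there is 1 array per group, and precision is limited by that number of arrays. In all, 12 alternatives were tried. The calculation of ratios and calls was tested on simulated data. Python 3.11.15, numpy 2.4.6, pandas 2.3.3, matplotlib 3.10.9, R 4.3.3 and limma 3.58.1 (normexp, offset 50) were used.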

Additional observations from a re-analysis of the deposited data

How the results depend on the processing

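No paired analysis was possible because each state has 1 array, and no array could be left out. All arrays share the slide, so it could not be a block. With both arrays required to be well above background, members at least 5-fold apart went from 1 to 0 between MB and OM. Under that filter they also went from 1 to 0 between MB and NM. Both losses are of ESM1, whose MB signal is at background. The same loss between MB and NM came with normexp background correction, whose added offset of 50 a.u. shrinks ratios to a dim signal. At 2-fold, members between MB and OM went from 1 to 2 without the 100 a.u. filter (STC1 was added), between MB and NM from 2 to 1 with both arrays well above background (VEGFC was left), and between NM and OM from 2 to 1 with the median over the probes of a gene (THBS1 was lost). Pathway genes 2-fold apart between MB and OM went from 7 to 11 without the filter. Other scalings moved the median log2 ratio of MB to OM of detected genes from 0.14 to -0.17 (spike-in, 6 probes) and -0.05 (75th percentile). Both multiply a whole array, so the order of the members' ratios stays as it is. Over all alternatives 108 log2 ratios of members moved by 1 SD of a single-spot ratio or more and 162 by less. The filters on dim signals give no separate value for a single ratio. Depth limits EDN1 and ANGPT2, which were at background, and every ratio of ESM1 to MB.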
